A study of Mus musculus with 24 samples.

Results

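The clustered Hox genes were followed in mouse digits before and after amputation. They were taken by symbol, as every gene named Hoxa, Hoxb, Hoxc or Hoxd with a number from 1 to 13 in the platform's probe table. The arrays measured 32 of the 39 such genes in the mouse reference table, each by 1 probe set, out of 14807 genes with a symbol of their own. By cluster these were 8 Hoxa, 10 Hoxb, 8 Hoxc and 6 Hoxd genes. The rest were not analysed here, and 2 probe sets that named a Hox gene among several symbols were left out.

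Total RNA came from hindlimb middle digits of wild-type MRL/MpJ (MRL) and C57BL/6 (B6) mice aged 3 to 4 months. Each strain was sampled at days 0, 3, 7 and 14 after amputation, day 0 being the unamputated digit, with 3 arrays per strain and day labelled as biological replicates. This makes 8 groups and 24 arrays. The sampled tissue is labelled as second phalanx and, in a note, as the anterior part of the digit. A sample can therefore hold several tissues together, such as skin, bone, tendon and vessels. These labels do not say whether nail tissue was included. The labels do not say how many mice entered a replicate, and the p-values then measure only the spread between these samples. MRL mice are known for unusual wound closure, for example of punched ears, and B6 mice served as the comparison strain.

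Hox proteins are homeodomain transcription factors, and the genes lie in 4 clusters whose order along the chromosome matches their order of use along the body and the limb. Low-numbered genes act near the head, and genes with the numbers 9 to 13 pattern the lower trunk, the tail and the limbs, where Hoxa13 and Hoxd13 specify digits and Hoxa11 and Hoxd11 the segment above the hand and foot. Adult connective tissue and skin cells keep a set of active Hox genes that reflects where in the body they came from, and Hoxc13 has a further role in hair and nail, where it acts on keratin genes.

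The promoters of the 3 genes that were higher at day 7 than at day 0 in B6 digits are shown together with that of Hoxa9, which was lower, because these members moved in opposite directions after amputation. The sequences are those of RefSeq on GRCm38.p6, which is not the build of the arrays, and they hold the 250 bases before the gene's start, 5′ to 3′ on the gene's strand. Capitals mark 4 motifs on either strand, with overlapping matches counted. They are the letters TATAAA of the TATA box, the letters GGGCGG of the GC box, the promoter motif CCAAT, and the letters TTTATTG, which posterior Hox proteins can bind.
Hoxd13, chr2:74667975-74668224 (+): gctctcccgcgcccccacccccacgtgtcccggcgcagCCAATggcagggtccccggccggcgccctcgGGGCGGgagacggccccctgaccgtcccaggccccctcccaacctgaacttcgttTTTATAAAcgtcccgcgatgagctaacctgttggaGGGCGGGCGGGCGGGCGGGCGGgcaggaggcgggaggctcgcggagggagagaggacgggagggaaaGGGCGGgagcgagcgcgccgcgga
Hoxa11, chr6:52245811-52246060 (-): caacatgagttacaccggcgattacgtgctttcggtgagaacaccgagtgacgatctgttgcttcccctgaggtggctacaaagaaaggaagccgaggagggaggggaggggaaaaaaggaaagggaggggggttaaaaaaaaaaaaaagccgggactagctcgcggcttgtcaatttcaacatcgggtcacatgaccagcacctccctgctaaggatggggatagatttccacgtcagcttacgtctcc
Hoxd10, chr2:74691641-74691890 (+): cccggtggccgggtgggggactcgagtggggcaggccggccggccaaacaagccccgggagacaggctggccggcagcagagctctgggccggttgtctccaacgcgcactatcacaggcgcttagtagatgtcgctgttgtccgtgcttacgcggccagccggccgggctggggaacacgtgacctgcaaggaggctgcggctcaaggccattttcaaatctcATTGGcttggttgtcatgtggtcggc
Hoxa9, chr6:52227371-52227620 (-): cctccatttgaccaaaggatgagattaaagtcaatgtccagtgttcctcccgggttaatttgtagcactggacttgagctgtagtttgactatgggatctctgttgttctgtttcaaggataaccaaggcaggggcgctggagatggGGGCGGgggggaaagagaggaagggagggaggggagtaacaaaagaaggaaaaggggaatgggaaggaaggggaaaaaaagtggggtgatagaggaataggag
The Hoxd13 window held 10 matches: TATAAA on both strands, overlapping each other, 7 GC boxes and 1 CCAAT. Its G and C content was 74.4%, against 65.6% for Hoxd10, 52.0% for Hoxa11 and 49.6% for Hoxa9. The Hoxa11 window held 0 matches, the Hoxd10 window 1 CCAAT and the Hoxa9 window 1 GC box. Of 32851 mouse promoter windows of this length, 12.4% held the TATA box, 4.2% held the posterior Hox motif, 32.7% held the GC box and 33.8% held the CCAAT motif. Among the 19 windows of the 17 measured Hox genes in that table, the counts were 3, 1, 9 and 10 in the same order. A match is a description of these letters, and the 3 genes that were higher share no searched motif.

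The values are log2 of the deposited intensities, so a difference of 1 is a doubling, and the SD given with a mean is over 3 arrays. A gene was called where limma's adjusted p, Benjamini-Hochberg over 15928 probe sets, was under 0.05. Levels are set against each other only within a gene, since probes differ in how strongly they bind. As a guide to background, the group means of 718 olfactory receptor probe sets, genes that a digit is not known to use, had a median of 4.07 and a 95th percentile of 6.31. The mean over the 24 arrays was at or above that percentile for 19 Hox genes and below it for 13. These 13 were Hoxa2, Hoxa5, Hoxa6, Hoxb2, Hoxb4, Hoxb7, Hoxb8, Hoxb13, Hoxc4, Hoxc5, Hoxc12, Hoxd1 and Hoxd3.

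The arrays labelled MRL day 0 and MRL day 3 went against their labels. The mean level of 9 leukocyte genes was 9.67 to 9.92 on the arrays labelled MRL day 0 and 7.12 to 8.21 on those labelled MRL day 3. In B6 the same list stood at 7.36 to 7.55 at day 0 and 10.39 to 10.48 at day 3. The hair and nail list ran the other way, with means of 7.07 to 7.33 and 9.10 to 9.38 on the arrays labelled MRL day 0 and MRL day 3, and of 9.36 to 9.62 and 6.07 to 6.30 on B6 day 0 and day 3 arrays. Comparisons that use the labelled arrays are therefore given last and as labelled. The medians of the 24 arrays ran between intensities of 141 and 181. The lowest were those of B6 day 3 replicates 3 and 2, at 141.3 and 143.5, and of MRL day 0 replicate 3, at 143.9. B6 day 3 replicate 1 stood at 162.6, and the B6 day 0 arrays at 163.1 to 169.5.

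Limb identity genes are described beside the label of a hindlimb digit. Pitx1, which specifies the hindlimb, had group means between 6.15 and 6.90, and Tbx4, its hindlimb partner, between 7.11 and 7.67. Tbx5, the forelimb counterpart, had group means between 4.76 and 5.90. In every group Tbx4 was above the 95th percentile of the olfactory receptor probe sets and Tbx5 below it, while the Pitx1 means lay on both sides of it. Because probes of different genes differ in how strongly they bind, and no forelimb digit was sampled, these levels do not test the label.

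Across the 8 groups, the group means of most Hox genes lay within 1 log2 unit of each other. The range of a gene's group means was between 0.26 and 1.36, with a median of 0.60, against a median of 0.56 over all probe sets. The median SD within a group was 0.13. Hoxa9, Hoxc12 and Hoxc13 were the 3 genes with a range over 1. Hoxb3 had the smallest range, 0.26, and Hoxb5, Hoxa5 and Hoxb13 had ranges of 0.28, 0.29 and 0.30. The unamputated B6 digit was the highest of the 8 groups for 22 of 32 Hox genes (68.8%), as it was for 29.4% of all probe sets and for 36.7% of the probe sets in the same range of levels. B6 day 3 was the lowest group for 15 Hox genes, as it was for 24.0% of all probe sets.

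**Figure D1:**
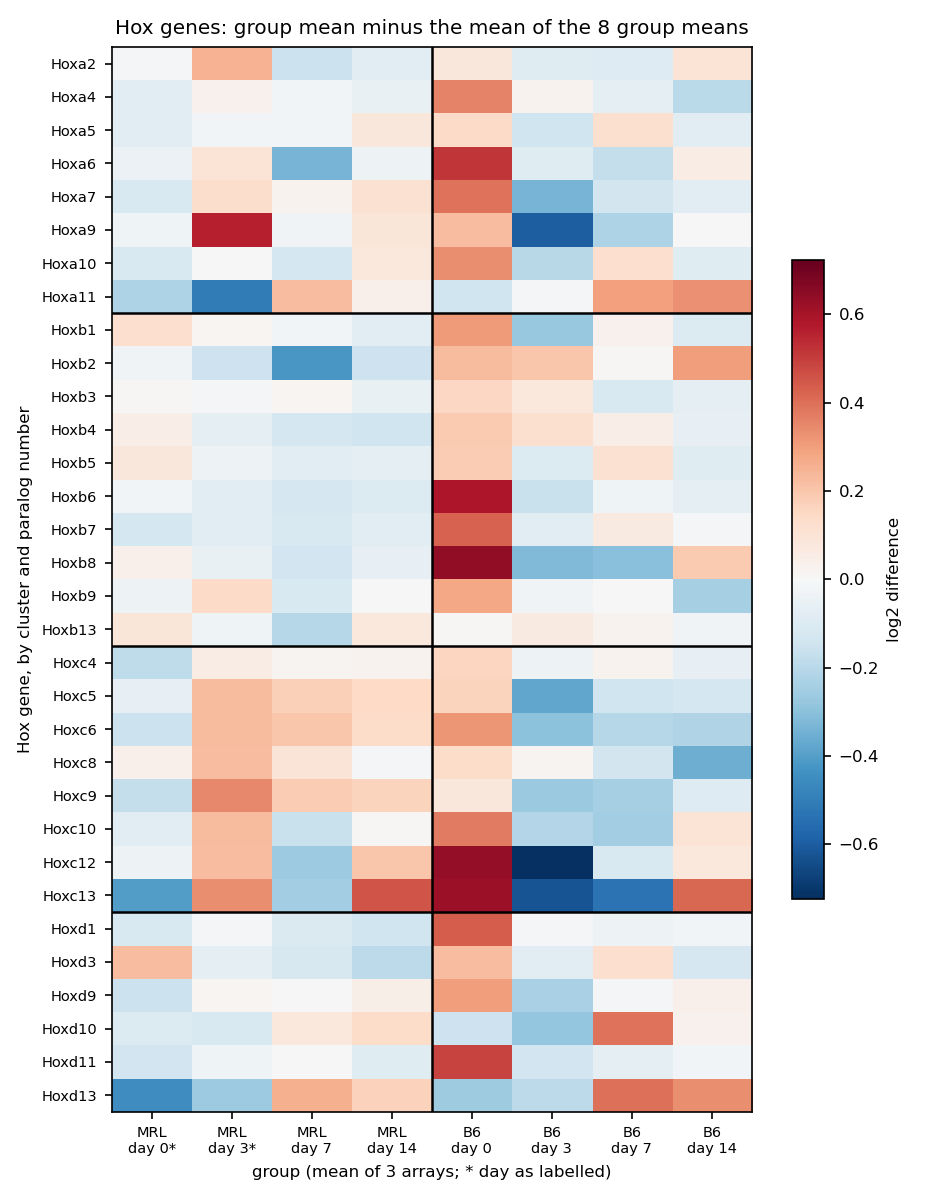
Group mean of each of the 32 Hox genes minus the mean of its 8 group means (colour, log2 units), with rows by cluster and paralog number and columns by strain and day (mean of 3 arrays; an asterisk marks days given as labelled). The B6 day 0 column is the highest of its row for 22 genes, while Hoxa11, Hoxb2, Hoxd10 and Hoxd13 are highest in B6 at day 7 or day 14.

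After amputation, most Hox genes that changed in B6 digits were lower than in the unamputated digit. At day 3, 19 of 32 Hox genes were lower and 0 were higher by limma than at day 0. Of all probe sets, 28.0% were lower, 17.4% higher and 45.4% called in either direction. By an unadjusted p under 0.05, 23 Hox genes were lower and 0 higher, but the share of all probe sets at that limit was not counted. The Hox median difference was -0.40, against -0.08 over all probe sets. With cyclic loess scaling these medians were -0.25 and 0.00, 16 Hox genes were called, and over all probe sets 3597 were higher and 3466 lower, in place of 2776 and 4458. At day 7, 14 Hox genes were lower and 3 higher, beside 19.4% and 23.5% of all probe sets, with 42.9% called. At day 14, 13 were lower and 2 higher, beside 14.2% and 22.8%, with 37.0% called. The Hox medians were -0.29 at day 7 and -0.28 at day 14, while those of all probe sets were -0.01 on both days. With cyclic loess the Hox medians were -0.19 and -0.24. These 3 comparisons share the B6 day 0 arrays, so they are not independent of each other. The groups did not overlap for 18 of the 19 genes called at day 3, all 17 at day 7 and all 15 at day 14, and likewise for 92.6%, 97.1% and 97.2% of all probe sets called. Without B6 day 0 replicate 2, B6 day 0 replicate 3 or B6 day 14 replicate 3, the 15 calls of day 14 became 9. In digit RNA, fewer cells of a type and less RNA per cell cannot be told apart.

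Several other measures moved with these counts. The olfactory receptor probe sets had median differences of 0.29, 0.12 and 0.02 at days 3, 7 and 14 minus day 0, opposite in sign to the Hox medians. At day 3, 207 of the 718 were called higher and 11 lower. Of the 9 leukocyte genes measured, 8 were higher at day 3, with a list median of 2.48, and of the 5 adipocyte genes all 5 were lower, with a list median of -0.64. Of the 10 fibroblast genes, 3 were higher and 5 lower at day 3, and 7 were higher and 0 lower at day 7. Leukocyte genes were higher for 8 of 9 at day 7 and 7 of 9 at day 14, and adipocyte genes lower for 4 of 5 on both days. At day 14, all 5 osteoblast genes were higher, with a list median of 1.78, as were 5 of 6 chondrocyte genes (0.75) and 6 of 10 fibroblast genes (0.58). Beside these counts, 17.4% of all probe sets were higher and 28.0% lower at day 3. The shares were 23.5% and 19.4% at day 7, and 22.8% and 14.2% at day 14. The 5 endothelial genes were higher on all 3 days. The part of these changes in the Hox differences was not tested. With day 3 in place of day 0 as the starting point, a comparison added after the data were seen, 3 Hox genes were higher and 0 lower at day 7 (beside 17.0% of all probe sets higher and 21.2% called). At day 14, 5 were higher and 0 lower than at day 3 (24.0% higher and 31.3% called). By an unadjusted p under 0.05, 7 were higher and 0 lower at day 7, and 8 higher and 1 lower at day 14. The share of all probe sets at that limit was not counted, so these counts have no background beside them. With cyclic loess scaling, the day 14 comparison gave 4 higher and 3 lower. The 3 calls of day 7 became 5 without B6 day 3 replicate 1 and 1 without B6 day 3 replicate 2, and the 5 calls of day 14 became 11 without B6 day 3 replicate 1.

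By cluster, the genes called lower at day 3 were 4 of 8 in Hoxa, 5 of 10 in Hoxb, 7 of 8 in Hoxc and 3 of 6 in Hoxd, beside 28.0% of all probe sets. By paralog number, they were 3 of 9 genes numbered 1 to 4, 7 of 10 numbered 5 to 8, 6 of 7 numbered 9 and 10, and 3 of 6 numbered 11 to 13. At day 7, the counts of lower genes were 4 in Hoxa, 2 in Hoxb, 6 in Hoxc and 2 in Hoxd, beside 19.4%. The 2 of 10 in Hoxb were near that share, as the 3 of 9 genes numbered 1 to 4 were near that of day 3. The 3 higher genes were 1 Hoxa and 2 Hoxd genes, and all had numbers from 10 up. High-numbered genes also fell at day 7. Of 6 genes numbered 11 to 13, 2 were higher and 3 lower, and of 7 numbered 9 and 10, 1 was higher and 3 lower. Lower genes were 6 of 10 numbered 5 to 8 and 2 of 9 numbered 1 to 4, the latter near the 19.4%. At day 14, lower genes were 3 in Hoxa, 4 in Hoxb, 4 in Hoxc and 2 in Hoxd, beside 14.2% of all probe sets. By number, 4 of 9 genes numbered 1 to 4 and 6 of 10 numbered 5 to 8 were lower at day 14. So were 2 of 7 numbered 9 and 10, and 1 of 6 numbered 11 to 13, the last near the 14.2%. The 2 higher genes of day 14 were numbered 11 to 13. Differences between clusters or paralog numbers were not tested.

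**Figure D2:**
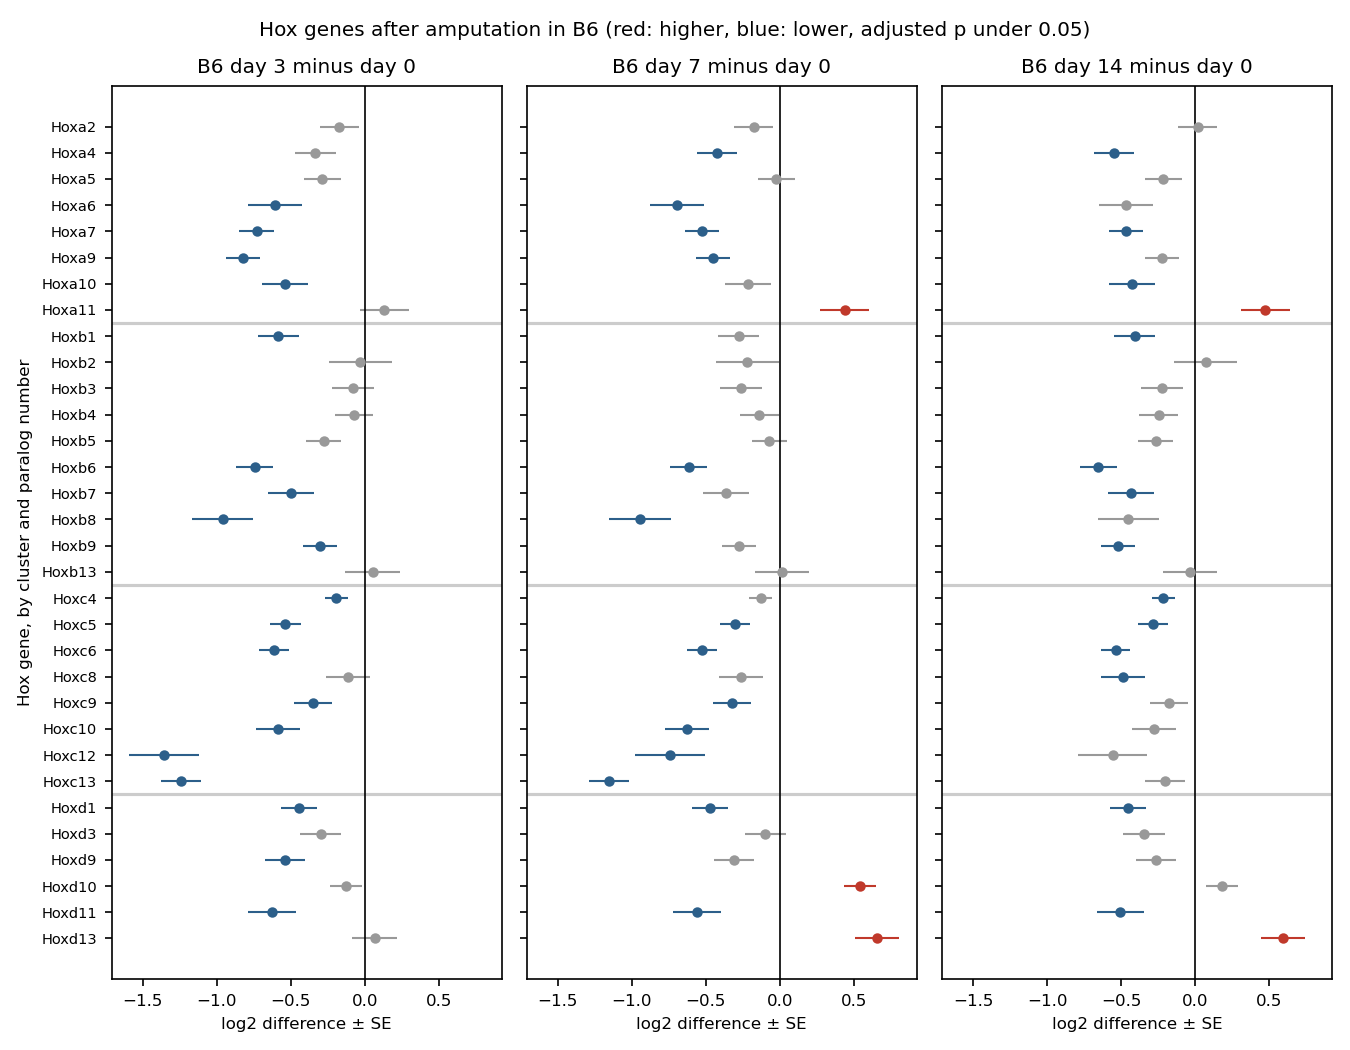
Log2 difference between B6 digits at day 3, 7 or 14 and day 0 (x axis, with 1 SE from the limma fit) for the 32 Hox genes, by cluster and paralog number. Blue points are lower and red points higher by adjusted p under 0.05: 19 blue and 0 red at day 3, 14 and 3 at day 7, and 13 and 2 at day 14.

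Hoxd13, the digit gene of the Hoxd cluster, was higher in amputated B6 digits at day 7 and day 14. Its log2 levels were 8.01, 7.47 and 7.60 at day 0, 8.10, 7.50 and 7.68 at day 3, 8.43, 8.27 and 8.34 at day 7, and 8.27, 8.39 and 8.20 at day 14. Every array of days 7 and 14 lay above every array of day 0 and day 3. Relative to day 0, the difference was 0.07 ± 0.15 (SE) at day 3, 0.65 ± 0.15 at day 7 (1.57-fold, adjusted p = 0.00143) and 0.59 ± 0.15 at day 14 (1.51-fold, adjusted p = 0.00391). In MRL digits its levels were 8.16, 8.16 and 8.31 at day 7 and 8.04, 7.95 and 8.35 at day 14, and 2 of the 3 MRL arrays on each day were below every B6 array of that day. The MRL minus B6 difference was -0.14 ± 0.15 at day 7 and -0.17 ± 0.15 at day 14, and neither passed the test. Hoxd13 is the gene whose window above held the letters TATAAA, with matches beginning 126 and 124 bases before the gene's start. Whether they act as a TATA box was not tested.

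Hoxd10, which takes part in patterning the limb and the hindlimb motor neurons, and Hoxa11 were singled out after their values were seen because they too were higher. Hoxd10 stood at 7.50, 7.32 and 7.68 at day 0, 7.41, 7.36 and 7.34 at day 3, 8.09, 7.93 and 8.11 at day 7, and 7.73, 7.69 and 7.64 at day 14 in B6. The 3 arrays of day 7 were above all other B6 arrays. Its difference from day 0 was 0.54 ± 0.11 at day 7 (1.45-fold, adjusted p = 0.000391) and 0.18 ± 0.11 at day 14 (adjusted p = 0.198). MRL digits at day 7 had 7.73, 7.78 and 7.68, a difference of -0.31 ± 0.11 from B6 that missed the threshold (adjusted p = 0.0747). All 3 MRL arrays were below the B6 arrays, and the groups likewise did not overlap for 32.3% of all probe sets in that comparison. Hoxd10 and Hoxd11 are annotated as overlapping loci, and Hoxd11 went the other way, with a difference of -0.56 ± 0.16 at day 7 (adjusted p = 0.00765).

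Hoxa11 stood at 7.14, 7.18 and 7.11 at day 0, 7.61, 7.03 and 7.17 at day 3, 7.65, 7.51 and 7.58 at day 7, and 7.69, 7.67 and 7.48 at day 14 in B6. At day 3, 1 array was as high as those of day 7, and the other 2 were near day 0. The difference from day 0 was 0.44 ± 0.17 at day 7 (adjusted p = 0.038) and 0.47 ± 0.17 at day 14 (adjusted p = 0.0296). Leaving out any 1 of the 6 arrays of the day 7 comparison removed the call of Hoxa11, with differences between 0.40 and 0.47. In MRL digits, the arrays were spread more widely, at 7.15, 7.61 and 7.76 at day 7 and 7.25, 7.00 and 7.72 at day 14.

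**Figure D3:**
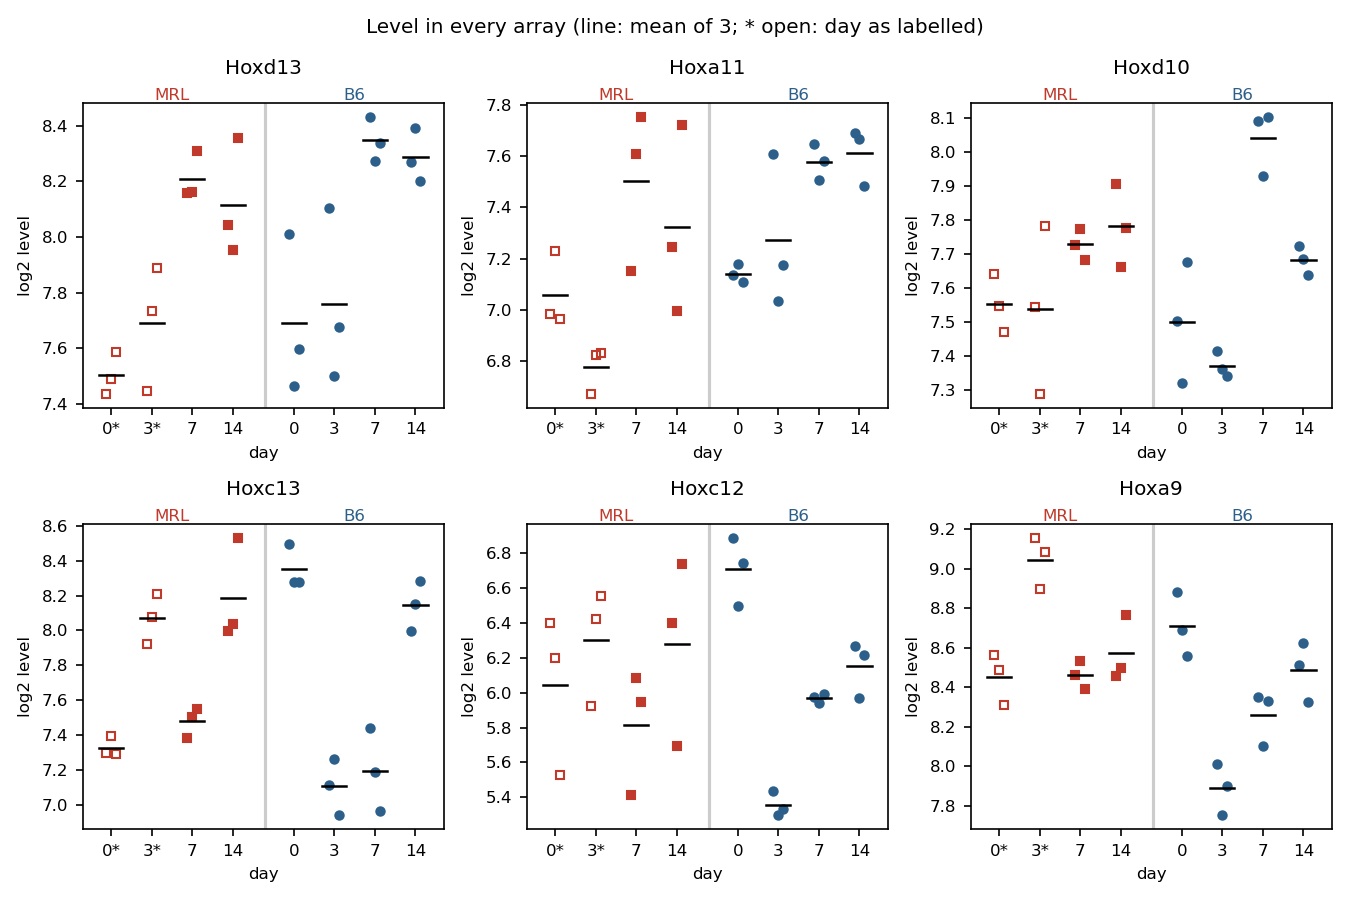
Log2 level of 6 Hox genes in every array (points), by day for MRL (squares, left) and B6 (circles, right), with the mean of 3 arrays as a line; open squares are the arrays labelled MRL day 0 and day 3. Hoxd13 at days 7 and 14 lies above day 0 in B6, and Hoxc13 drops at days 3 and 7 and at day 14 overlaps its day 0 range.

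Hoxc13, the hair and nail gene, fell at days 3 and 7 in B6 digits and was higher again at day 14. Its levels were 8.49, 8.28 and 8.28 at day 0, 7.11, 7.27 and 6.94 at day 3, 7.44, 7.19 and 6.96 at day 7, and 8.0, 8.15 and 8.28 at day 14. The arrays of days 3 and 7 were all lower than those of days 0 and 14. The difference from day 0 was -1.24 ± 0.14 at day 3 (adjusted p = 3.36e-07), -1.15 ± 0.14 at day 7 (adjusted p = 1.07e-06) and -0.20 ± 0.14 at day 14 (adjusted p = 0.256). At day 14 relative to day 7, Hoxc13 was the 1 Hox gene called in B6, higher by 0.95 ± 0.14 (adjusted p = 0.00014), where 1.46% of all probe sets were higher and 1.86% called in either direction.

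MRL digits showed the same change between those days. Hoxc13 had 8.0, 8.04 and 8.53 at day 14, against 7.39, 7.50 and 7.55 at day 7, without overlap. The difference was 0.71 ± 0.14 (adjusted p = 0.00328), and it was again the 1 Hox gene called, where 1.75% of all probe sets were higher, 1.79% lower and 3.54% called. The difference between the strains in the change from day 7 to day 14 was called for 0 of 32 Hox genes by limma (0.264% of all probe sets called). An unadjusted p was under 0.05 for 2 Hox genes, and the share of all probe sets at that limit was not counted.

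The hair and nail genes of the skin changed in the same direction as Hoxc13. Of the 9 measured members of a list of hair matrix and nail genes, 9 were lower at day 3 and 9 at day 7 than at day 0 in B6, with list medians of -3.85 and -3.74. At day 14 minus day 7, 9 of 9 were higher in both strains, with medians of 2.21 in MRL and 3.31 in B6. The mean level of these genes was 9.36 to 9.62 at day 0, 6.07 to 6.30 at day 3, 6.21 to 6.62 at day 7 and 8.86 to 9.19 at day 14 in B6. In MRL it was 7.47 to 7.75 at day 7 and 9.44 to 9.73 at day 14. The list includes genes that Hoxc13 is known to act on, and its part in the Hoxc13 change was not tested. Whether these genes changed in hair or in nail tissue was not tested either.

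**Figure D4:**
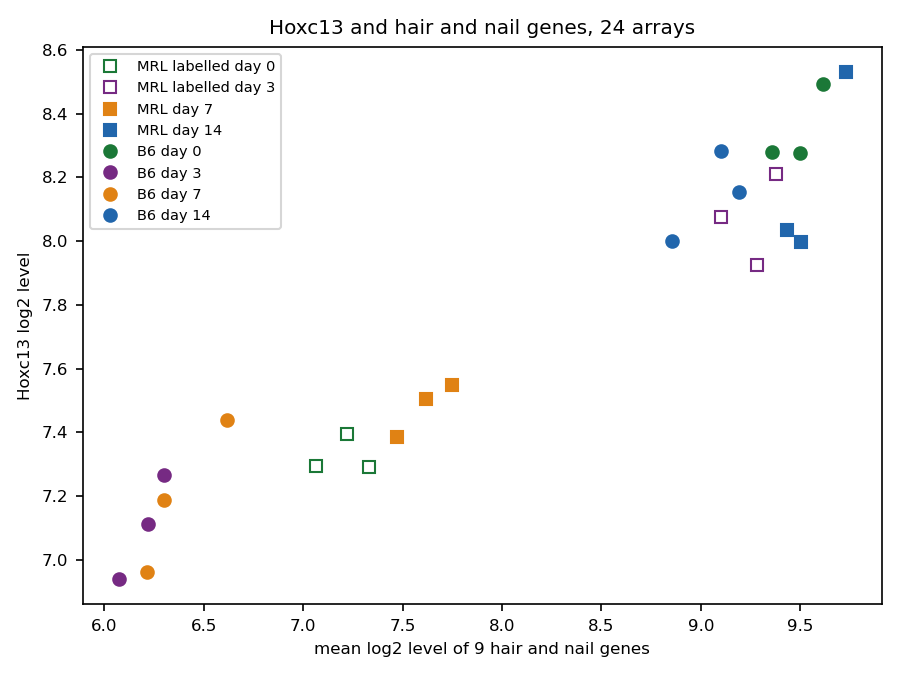
Hoxc13 log2 level (y axis) against the mean log2 level of 9 hair and nail genes (x axis) for the 24 arrays, coloured by day, with squares for MRL (open where the day is as labelled) and circles for B6. The arrays with a hair and nail mean of at most 7.75 have Hoxc13 levels of at most 7.55, and those with a mean of at least 8.86 have levels of at least 7.92.

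Hoxc12, the neighbour of Hoxc13 and also active in mouse hair follicles, was lower at days 3 and 7, at levels near the background guide. Its mean over the 24 arrays, 6.08, was below the olfactory 95th percentile of 6.31, and of the 4 B6 groups only day 0, at 6.71, was above it, so the size of a difference is uncertain. Its levels in B6 were 6.89, 6.50 and 6.74 at day 0, 5.44, 5.30 and 5.33 at day 3, 5.97, 5.94 and 5.99 at day 7, and 6.27, 5.97 and 6.22 at day 14. The 3 arrays of day 3 were below every other B6 array. The difference from day 0 was -1.36 ± 0.23 at day 3 (adjusted p = 9.18e-05), -0.74 ± 0.23 at day 7 (adjusted p = 0.0146) and -0.56 ± 0.23 at day 14 (adjusted p = 0.068). Hoxc12 was called higher at day 14 than at day 3, by 0.80 ± 0.23 (adjusted p = 0.0129), and by 0.50 with an offset of 32 added before the log. MRL arrays spread over 5.41, 6.08 and 5.95 at day 7 and 6.40, 5.69 and 6.74 at day 14, and the groups overlapped.

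Hoxa9, known for its role in blood-forming cells and in the lower trunk, fell at days 3 and 7. B6 levels were 8.88, 8.69 and 8.56 at day 0, 8.01, 7.75 and 7.90 at day 3, 8.35, 8.10 and 8.33 at day 7, and 8.51, 8.63 and 8.33 at day 14. The difference from day 0 was -0.82 ± 0.11 at day 3 (adjusted p = 7.79e-06), -0.45 ± 0.11 at day 7 (adjusted p = 0.00331) and -0.22 ± 0.11 at day 14 (adjusted p = 0.14). Day 3 and day 7 arrays lay below day 0 arrays without overlap, and day 14 arrays overlapped them. Relative to day 3, Hoxa9 was higher by 0.37 ± 0.11 at day 7 and by 0.60 ± 0.11 at day 14. With cyclic loess these were 0.19, no longer called, and 0.38, and the difference of day 14 from day 0 was -0.33 and called (adjusted p = 0.00328).

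Hoxb8, known for its role in immature myeloid cells, was close to the background guide. Its B6 levels were 5.49, 5.08 and 5.39 at day 0, 4.72, 4.11 and 4.26 at day 3, 4.43, 4.00 and 4.70 at day 7, and 4.85, 5.03 and 4.73 at day 14. The difference from day 0 was -0.96 ± 0.21 at day 3 (adjusted p = 0.000799), -0.95 ± 0.21 at day 7 (adjusted p = 0.000958) and -0.45 ± 0.21 at day 14 (adjusted p = 0.0942). With an offset of 32 added before the log, the differences at days 3 and 7 were -0.45 and -0.44, and both stayed called. The means of Hoxb8 in all groups lay below the 95th percentile of the olfactory receptor probe sets.

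The other called genes fell by smaller amounts. At day 3 in B6 they were Hoxa6, Hoxa7, Hoxa10, Hoxb1, Hoxb6, Hoxb7, Hoxb9, Hoxc4, Hoxc5, Hoxc6, Hoxc9, Hoxc10, Hoxd1, Hoxd9 and Hoxd11, with differences between -0.74 for Hoxb6 and -0.19 for Hoxc4. Among them, Hoxa6, Hoxb7, Hoxc4, Hoxc5 and Hoxd1 had means over the 24 arrays below the olfactory 95th percentile, so the size of their differences is uncertain. Of the 13 Hox genes below that percentile, 7 were called lower at day 3, as were 12 of the 19 above it. Hoxc4 passed narrowly, with an adjusted p of 0.0499, and the Hoxc9 arrays of day 3 overlapped those of day 0. Hoxa7, Hoxb6 and Hoxc6, which pattern the trunk in embryos, were lower on all 3 days. Hoxb6 differed by -0.74, -0.62 and -0.65 at days 3, 7 and 14, Hoxa7 by -0.73, -0.53 and -0.47, and Hoxc6 by -0.61, -0.53 and -0.54, with SEs of 0.10 to 0.12. The Hoxc6 difference at day 3 was -0.41 with cyclic loess, and the day 3 calls of Hoxc4 and Hoxc9 were then lost. Hoxd11, partner of Hoxa11 in the lower leg, differed by -0.63, -0.56 and -0.51, each with an SE of 0.16, and was also lower on all 3 days.

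Other genes stayed without a call on all 3 days. Hoxb13, the Hoxb gene of the tail end of the body, stood at 6.42, 5.89 and 6.14 at day 0, 5.91, 6.25 and 6.47 at day 3, 5.70, 6.30 and 6.50 at day 7, and 6.18, 6.15 and 6.02 at day 14 in B6. Its differences from day 0 were 0.06, 0.01 and -0.03, each with an SE of 0.18. MRL levels of Hoxb13 were 5.91, 5.95 and 5.95 at day 7 and 6.02, 6.02 and 6.61 at day 14. The low-numbered genes Hoxa2, Hoxb2, Hoxb3 and Hoxb4, which pattern the hindbrain and neck, were also without a call. Their differences ran from -0.26 to 0.07 over the 3 days. Hoxa5, Hoxb5 and Hoxd3 were likewise without a call, with differences from -0.34 to -0.03. Hoxb13, Hoxa2, Hoxb2, Hoxb4, Hoxa5 and Hoxd3 had means over the 24 arrays below the olfactory 95th percentile of 6.31, Hoxb4 only just. Whether the arrays detected RNA of these genes is therefore uncertain, and so is a lack of change in them.

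Of 7 Meis, Pbx and related genes measured, 1 was lower at day 3 and 1 higher and 1 lower at day 7, with 0 called at day 14, where 45.4%, 42.9% and 37.0% of all probe sets were called on the 3 days. Meis1, which binds DNA beside Hox proteins, differed by -0.73 ± 0.14 at day 3 (adjusted p = 0.000234) and -0.41 ± 0.14 at day 7, and Pbx3, a partner of the same kind, by 0.44 ± 0.10 at day 7 (adjusted p = 0.00157). Among 13 genes next to the clusters, 3 were higher and 3 lower at day 3 (46.2%), near the 45.4% of all probe sets. Skap2, beside Hoxa and an adaptor of immune cells, differed by 1.52 ± 0.12, and Mtx2, beside Hoxd, by 0.68 ± 0.13. The homeobox genes Evx1 and Evx2, at the posterior ends of Hoxa and Hoxd, differed by -0.46 ± 0.12 and -0.50 ± 0.10. At day 7, Lnpk, beside Hoxd, was higher by 1.03 ± 0.15.

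Genes of limb identity and patterning were called lower more often than higher at day 3. Of 16 limb identity genes, 11 were lower and 0 higher at day 3, 5 lower and 3 higher at day 7, and 4 lower and 2 higher at day 14. The shares of all probe sets were 28.0% lower and 17.4% higher at day 3, 19.4% and 23.5% at day 7, and 14.2% and 22.8% at day 14. The limb identity calls came to 50.0% at day 7 and 37.5% at day 14, near the 42.9% and 37.0% of all probe sets. Tbx5 differed by -0.98 ± 0.17 at day 3, -0.95 ± 0.17 at day 7 and -0.86 ± 0.17 at day 14, although its level was within the background guide. Pitx1 differed by -0.65, -0.45 and -0.64 (SE 0.15) on those days, each called, and Tbx4 by -0.53, -0.20 and -0.40 (SE 0.11), called at days 3 and 14. Prrx1 and Twist1, markers of limb mesenchyme, were higher at day 7, by 0.82 ± 0.09 and 0.64 ± 0.15. Of 22 patterning genes, 17 were lower at day 3, 15 at day 7 and 8 at day 14, led at day 3 by Msx2 at -2.32 ± 0.19, Dlx3 at -1.76 ± 0.15, Bmp4 at -1.53 ± 0.13 and Bmp7 at -1.24 ± 0.13. Msx2 and Dlx3 are also genes of hair and nail. Wnt5a, a signal of growing limb tips, was higher at day 7, by 0.95 ± 0.11.

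Retinoic acid, which switches on Hox genes in embryos, has its own enzymes and receptors, and of 15 measured, 4 were higher and 5 lower at day 3, and 4 and 4 at day 7, where 45.4% and 42.9% of all probe sets were called. The acid-making Aldh1a2 and Aldh1a3 were higher, by 0.94 ± 0.28 and 0.82 ± 0.17, and the acid-degrading Cyp26b1 and the receptor gene Rarg differed by -1.01 ± 0.17 and -0.93 ± 0.12. At day 7, Aldh1a3 was higher by 1.24 ± 0.17. Polycomb genes, which keep Hox genes silent, were called in both directions: of 19, 3 were higher and 9 lower at day 3, and 8 higher and 7 lower at day 7. Cbx7 and Cbx2, readers of the Polycomb mark, differed by -1.06 ± 0.11 and -0.78 ± 0.10 at day 3, and Rnf2, a Polycomb enzyme, by 0.84 ± 0.13 at day 7. Of 6 trithorax genes, which counter Polycomb, 1 was higher and 2 lower at day 3, near the share of all probe sets.

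Between the strains at matched days 7 and 14, few Hox genes differed. At day 7, 2 of 32 were higher in MRL and 0 lower, where 3.18% of all probe sets were higher, 6.27% lower and 9.46% called. At day 14, 1 was higher and 0 lower, where 0.866% were higher, 4.40% lower and 5.27% called. The called genes were trunk genes of the Hoxc cluster, singled out after their values were seen. Hoxc6 stood at 6.73, 6.71 and 6.63 in MRL digits at day 7, against 6.36, 6.09 and 6.39 in B6 digits, a difference of 0.41 ± 0.10 (1.33-fold, adjusted p = 0.0128). At day 14, it had 6.68, 6.55 and 6.63 in MRL digits, against 6.21, 6.32 and 6.28 in B6 digits, a difference of 0.35 ± 0.10 (adjusted p = 0.0465). The MRL arrays were above the B6 arrays on both days, and groups likewise did not overlap for 98.9% and 98.8% of all probe sets called.

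Hoxc9 had 6.90, 6.97 and 6.90 in MRL digits at day 7, against 6.42, 6.58 and 6.51 in B6 digits, a difference of 0.42 ± 0.13 (adjusted p = 0.0425), and at day 14 the difference of 0.26 ± 0.13 was not called. Hoxc5, a neighbour of Hoxc6 with a mean level below the olfactory 95th percentile, differed by 0.32 ± 0.10 at day 7 (adjusted p = 0.056) and by 0.27 ± 0.10 at day 14. Each of these calls depended on single arrays. At day 7, the 2 calls became 0 without B6 day 7 replicate 2 or MRL day 7 replicate 1, and 1 without any of the other 4 arrays. Hoxc9 lost its call without any 1 of the 6 arrays of day 7. At day 14, Hoxc6 lost its call without any 1 of the 6 arrays, with differences between 0.32 and 0.38. Another Hox gene was called without B6 day 14 replicate 1 or MRL day 14 replicate 3. By an unadjusted p under 0.05, 3 Hox genes were higher and 1 lower at day 7, and 4 higher and 1 lower at day 14. The share of all probe sets at that limit was not counted, so these counts have no background beside them. Whether a base difference between the strains under the probes affects these values was not tested. Other cell types also differed between the strains. At day 7, 5 of 6 chondrocyte genes were higher in MRL, with a list median of 1.69, and 4 of 9 leukocyte genes (-0.52) and 2 of 5 endothelial genes (-0.25) were lower. At day 14, 5 of 9 leukocyte genes (-0.71) and 3 of 5 endothelial genes (-0.44) were lower in MRL, with 0 chondrocyte genes called. Their part in the Hox differences was not tested. The hair and nail list was higher in MRL at day 7 for 8 of 9 genes and at day 14 for 3 of 9, while Hoxc13 itself differed by 0.28 ± 0.14 and 0.04 ± 0.14 and was not called.

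**Figure D5:**
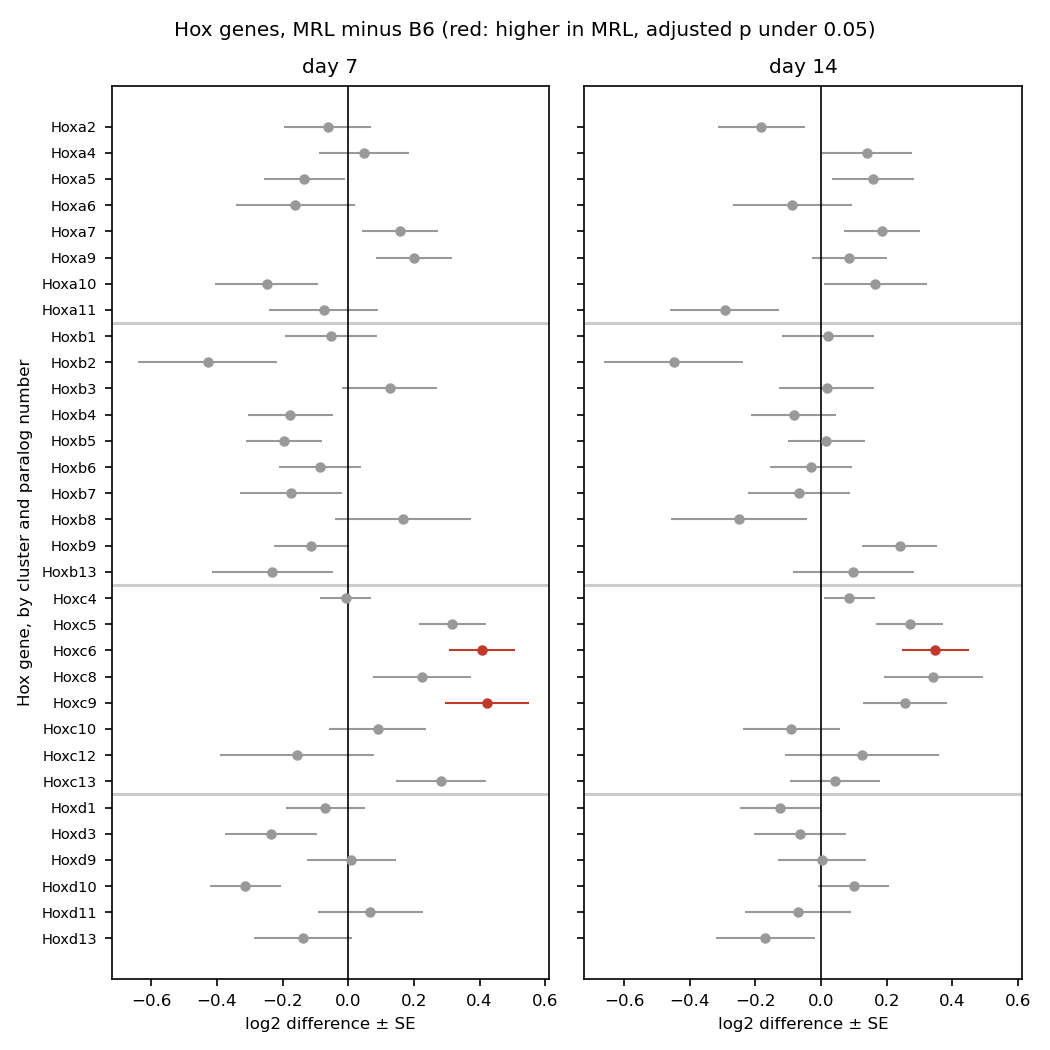
Log2 difference MRL minus B6 (x axis, with 1 SE from the limma fit) for the 32 Hox genes at day 7 (left) and day 14 (right), by cluster and paralog number. Red points passed the test: Hoxc6 and Hoxc9 at day 7 and Hoxc6 at day 14.

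Of the 13 genes next to the Hox clusters, 0 were higher and 3 lower in MRL at day 7, namely Skap2 (-0.58 ± 0.12), Lnpk (-0.53 ± 0.15) and Ttll6 (-0.33 ± 0.10), and 0 were called at day 14. The Hox cofactors and limb identity genes had 0 calls at day 7 and at day 14, where 9.46% and 5.27% of all probe sets were called. Of the retinoid genes, 1 was higher and 5 lower in MRL at day 7, with Aldh1a2 at -1.46 ± 0.28 (adjusted p = 0.00181). Crabp1, a carrier of retinoic acid, was lower in MRL on both days, with differences of -0.65 ± 0.14 at day 7 and -1.18 ± 0.14 at day 14. The Polycomb gene Ezh1 differed by -0.74 ± 0.09 and -1.03 ± 0.09 on those days.

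As labelled, the MRL day 3 arrays had 6 Hox genes higher and 0 lower than the MRL day 0 arrays, and 3 higher without MRL day 0 replicate 3 or MRL day 3 replicate 1 (13.4% of all probe sets higher and 20.5% called). They were Hoxa9 (0.59), Hoxc4 (0.24), Hoxc5 (0.29), Hoxc6 (0.39), Hoxc9 (0.52) and Hoxc13 (0.74), the direction opposite to B6. Hoxc13 stood at 7.92, 8.07 and 8.21 on the arrays labelled MRL day 3, against 7.30, 7.39 and 7.29 on those labelled MRL day 0. For Hoxa9 the levels were 9.15, 8.90 and 9.08, against 8.56, 8.49 and 8.31. At MRL day 7, Hoxd13 was higher than on either labelled group, by 0.71 ± 0.15 against labelled day 0 (10.7% of all probe sets higher and 17.3% called) and by 0.52 ± 0.15 against labelled day 3 (9.68% higher, 13.4% lower and 23.1% called). At MRL day 14, the difference was 0.61 ± 0.15 against labelled day 0 (10.5% higher, 7.23% lower and 17.7% called) and 0.43 ± 0.15 against labelled day 3 (5.59% higher, 7.55% lower and 13.1% called), where it missed the threshold with an adjusted p of 0.0676. Besides Hoxd13, Hoxc6 was called at day 7 against labelled day 0 (0.36). At day 14 against labelled day 0, Hoxc13 (0.86) and Hoxd3 (-0.41) were called. The Hoxd3 arrays of the groups overlapped, and its mean level was below the olfactory 95th percentile. A probe set naming both Hoxd4 and Hoxd3, left out of the counts, differed by 0.10 in that comparison and was not called (limma adjusted p = 0.608). Against labelled day 3, Hoxa11 (0.73), Hoxa2 (-0.41), Hoxa9 (-0.58) and Hoxc13 (-0.59) were called at day 7, and Hoxa11 (0.55) and Hoxa9 (-0.47) at day 14. Of these, the 2 calls at day 14 became 0 without MRL day 3 replicate 1, and the 5 at day 7 became 3. The 2 calls at day 7 against labelled day 0 became 1 without MRL day 0 replicate 3 or MRL day 7 replicate 2. Hoxd13 levels were 7.44, 7.49 and 7.59 on the arrays labelled day 0 and 7.45, 7.73 and 7.89 on those labelled day 3, so all 6 were below every MRL array of days 7 and 14.

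Strain comparisons on these arrays depend on which group is matched. As labelled, MRL minus B6 gave 16 lower and 0 higher Hox genes at day 0 (22.1% of all probe sets lower and 40.0% called), and 9 higher and 1 lower at day 3 (27.1% higher and 40.6% called). With the arrays labelled MRL day 0 set against B6 day 3, 1 Hox gene was called, Hoxa9 at 0.56 (6.87% of all probe sets higher and 10.9% called). With those labelled MRL day 3 set against B6 day 0, 6 were called, Hoxa9 higher at 0.34 and Hoxb6, Hoxb7, Hoxb8, Hoxd1 and Hoxd11 lower (18.0% higher, 12.3% lower and 30.3% called). In both of these pairings, Hoxa9 was higher on the MRL arrays, although the 0.34 became 0.22 and was no longer called with cyclic loess. The call of that 0.34 was also lost without B6 day 0 replicate 2, B6 day 0 replicate 3, MRL day 3 replicate 1 or MRL day 3 replicate 3. Single arrays decided several of these counts. The 16 genes lower at labelled day 0 became 9 without MRL day 0 replicate 3. The 6 genes of the last pairing became 3 without B6 day 0 replicate 2, B6 day 0 replicate 3 or MRL day 3 replicate 1. The 1 gene of the other pairing became 3 without MRL day 0 replicate 3 or B6 day 3 replicate 1.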

How the data were processed

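Per the labels' protocols, RNA was extracted with Trizol and RNeasy columns, amplified and biotin-labelled for Affymetrix whole-transcript arrays. Per the submitters' processing notes, the authors summarised the arrays with RMA in Affymetrix Expression Console, with mm8 as the build. The deposited values are intensities per probe set on a linear scale (3.99 to 12789), and no source at hand states how RMA's log values were brought to it. RMA sets arrays to a common distribution and can hide a shift shared by most genes, yet the array medians differed by up to 0.356 in log2. The number of arrays limits the precision, and no spot-level background was used here.

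The log2 of the deposited intensity was fitted with limma 3.58.1 in R 4.3.3, with 1 mean for each of the 8 groups, over the 15928 of 16661 probe sets with a symbol (14939 with 1, 989 with several; 733 had none). The residual and prior degrees of freedom were 16 and 4.62. All 20 comparisons were contrasts of that fit, Benjamini-Hochberg adjusted within each, and the threshold was 0.05. With 3 arrays against 3, an exact permutation test of a single value cannot go below 0.1, so single values rest on the model across all probe sets. The highest correlation between 2 arrays was 0.996, and no 2 were identical.

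Values in every array are given for the 13 paralogs and for genes called with an absolute log2 difference of at least 0.8 at a day or between strains without the arrays labelled MRL day 0 or day 3. Of each gene list, up to 4 called members with the largest difference were named. At day 3 in B6, the lists not counted on that day in the report gave keratinocyte (0 higher and 3 lower of 9), osteoblast (1 higher and 0 lower of 5), chondrocyte (0 and 1 of 6), erythroid (0 and 0 of 3), skeletal muscle (0 and 0 of 4) and Schwann (0 and 2 of 3). The members and lists were chosen with earlier results of these data known. Same-numbered arrays did not deviate together: all 3 numbers had correlations over 0.1 in 1 of 28 pairs of groups, so arrays were treated as unpaired.

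The alternatives were cyclic loess scaling, leaving out dim probe sets, an offset of 32 added before the log, array weights, a replicate block, leaving out the arrays labelled MRL day 0 and day 3, and leaving out each array in turn. The test was also run on simulated data with known changes, and the outcome is not given here. Promoter windows came from RefSeq on GRCm38.p6 and were matched by symbol.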

Additional observations from a re-analysis of the deposited data

Results flagged for a closer look

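The change between the arrays labelled day 3 and day 0 differed between the strains for 18 Hox genes by limma's interaction term (MRL minus B6, adjusted p under 0.05). All 18 differences were positive, where 28.8% of all probe sets were higher and 45.2% called. They were 1.99 for Hoxc13, 1.61 for Hoxc12, 1.41 for Hoxa9, 1.00 for Hoxc6, 0.97 for Hoxa7, 0.89 for Hoxc10, 0.87 for Hoxc9 and Hoxb8, 0.83 for Hoxc5, 0.75 for Hoxa6, 0.73 for Hoxd11, 0.71 for Hoxd9, 0.68 for Hoxb6, 0.64 for Hoxa10, 0.55 for Hoxd1, 0.54 for Hoxb7, 0.48 for Hoxb9 and 0.43 for Hoxc4. All of them use the arrays labelled MRL day 0 and MRL day 3, on which leukocyte and hair and nail genes went against the labels. The counts in the pairings of these arrays with the other B6 day are in the report. Groups of 3 arrays were not tested for outlying arrays.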

How the results depend on the processing

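Gene results were followed for Hoxa9, Hoxa11, Hoxb8, Hoxb13, Hoxc6, Hoxc9, Hoxc12, Hoxc13, Hoxd10 and Hoxd13, where called in the main fit or the alternative. Of these results, 677 kept their call, 49 gained a call and 89 lost it, and none turned in sign. The signs of differences called in neither fit, and of the other Hox genes, were not followed. Calls lost in at least 7 of 12 alternatives were Hoxc9 (B6 day 7 minus day 0, 8), Hoxc6 (MRL minus B6 at day 14, 8), Hoxa11 (B6 day 7 minus day 0, 7), Hoxc9 (MRL minus B6 at day 7, 7) and Hoxd10 (B6 day 14 minus day 3, 7). In B6 the counts at days 3, 7 and 14 against day 0 were 19, 17 and 15, and stayed within 1.5 times of that under cyclic loess (16, 16 and 13), the dim filter, which left out Hoxa5, Hoxa6, Hoxb2 and Hoxb8 (18, 16 and 16), the offset (20, 18 and 16), array weights (22, 18 and 21) and without the arrays labelled MRL day 0 and day 3 (17, 15 and 15). With day 3 in place of day 0, chosen after seeing the data, the counts were 3 at day 7 and 5 at day 14.

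Leaving out each array gave 15 to 19, 13 to 16 and 9 to 15 Hox genes at days 3, 7 and 14 against day 0 in B6, 1 for day 14 against day 7 in either strain, 0 to 1 for MRL minus B6 at day 7 and at day 14, and 0 for the strain difference in day 14 minus day 7. Against B6 day 3, it gave 1 to 5 at day 7 and 4 to 11 at day 14. As labelled, it gave 3 to 5 for MRL day 3 against day 0, 1 to 3 and 2 to 3 for days 7 and 14 against day 0, 3 to 6 and 0 to 2 against day 3, 9 to 17 and 7 to 10 for MRL minus B6 at days 0 and 3, 3 to 6 for MRL labelled day 3 minus B6 day 0, 1 to 3 for MRL labelled day 0 minus B6 day 3, and 15 to 20 for the strain difference in day 3 minus day 0.

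Cyclic loess gave 2 Hox genes for B6 day 14 against day 7, 2 for MRL minus B6 at day 14, 6 each for MRL days 7 and 14 against labelled day 0, and 2 for MRL labelled day 0 minus B6 day 3, where the dim filter gave 3. Array weights gave 4 for MRL day 14 against day 7, 5 and 6 for MRL minus B6 at days 7 and 14, 6 and 10 for MRL days 7 and 14 against labelled day 0, 9 and 11 against labelled day 3, 10 for MRL labelled day 3 minus B6 day 0, 4 for MRL labelled day 0 minus B6 day 3, and 8 and 9 for B6 days 7 and 14 against day 3. The replicate block gave 18, 17 and 14 at days 3, 7 and 14 against day 0 in B6, and 0 for MRL minus B6 at day 14, as did leaving out the arrays labelled MRL day 0 and day 3. The causes were not tested.

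Over all probe sets, cyclic loess changed the split of higher and lower calls: 3597 and 3466 against 2776 and 4458 for B6 day 3 minus day 0, 3421 and 3234 against 3624 and 2266 for day 14 minus day 0, 1025 and 963 against 507 and 999 for MRL minus B6 at day 7, and 382 and 633 against 138 and 701 at day 14. Each Hox gene had 1 probe set with its symbol alone, so averaging probe sets was not run. Levels near the olfactory receptor range limit what can be said of 13 Hox genes.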
